A study of Arabidopsis thaliana with 24 samples.

Results

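Untreated shoots of Arabidopsis thaliana (Col-0) were compared at 10 and 3 days after seedlings had been moved to fresh control medium (Ctrl-S-10D and Ctrl-S-3D), in 6 of the 24 libraries of the series. Seedlings grew for 5 days on agar before the transfer, so the shoots were 15 and 8 days old. Each library held the shoots of a pool of 160 seedlings, and each group had 3 libraries. The other groups used here are shoots kept on medium with 2 mM TiO2 for 10 and 3 days (Ti-S-10D and Ti-S-3D) and untreated roots at 10 and 3 days (Ctrl-R-10D and Ctrl-R-3D), all of the same accession and under the same 16 h light and 8 h dark at 22 °C. The values are log2 CPM, read counts scaled to a common library size, with 1 fitted value per gene and group, since a group's 3 columns never differ in any row. No spread between replicates can be computed from them, so no p-value or error is given for any difference and the depth behind each value is unknown from the files. Of 19495 genes listed in shoots, 14688 had at least 5 CPM in the higher of Ctrl-S-10D and Ctrl-S-3D and were ranked by the difference between the days. A gene is called higher or lower when this difference, 10 days minus 3 days, is 1 or more in size on the log2 scale, which is a 2-fold change.

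Between these ages a seedling passes from a pair of open cotyledons with the first small leaves to a rosette, and the share of dividing cells in the shoot declines as leaves expand. Leaves formed later differ in shape from the early ones, a change of phase that is timed by the decline of the microRNA miR156 and the rise of its SPL targets and of miR172. Many plant transcripts also follow the time of day through the circadian clock, a loop in which the morning factors CCA1 and LHY, the PRR repressors and the evening complex of ELF3, ELF4 and LUX hold each other in check. Heat shock transcription factors switch on chaperones within minutes when proteins unfold. The hour of harvest is not given in the sources used here, so age, hour and occasion of harvest cannot be told apart in any difference between the days.

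Of the ranked genes, 486 (3.31%) were called higher and 872 (5.94%) were called lower at 10 days. The 2 shares are the background for every count of list members called higher or lower in untreated shoots. The median difference over all ranked genes was 0.02. The robust standard deviation of the difference was 0.45 on the log2 scale. Differences of 2 or more were found for 84 genes, and of -2 or less for 159 genes. Beyond 4 in size, 12 genes were higher and 16 lower. Nearest to the limit, LSH10 (1.0001) and TTL3 (1.0012) lay just inside and TRZ3 (0.9998) and EXL4 (0.9995) just outside among higher genes, and AT4G21215 (-1.0001) lay just inside and AT3G61610 (-0.9995) just outside among lower genes. Levels of 5 to 10 CPM in the higher group were found for 103 of the higher and 250 of the lower genes, against 2574 of all ranked genes.

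The balance between the directions depends on the scale. The deposited CPM of the listed genes summed to 956226 at 10 days and 1034480 at 3 days. Rescaling both to the same sum moved the median of all ranked genes by 0.11 and gave 653 genes higher (47.6%) and 719 lower (52.4%), against 486 (35.8%) and 872 (64.2%) on the deposited scale.

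A yardstick for these counts is the distance between groups of 1 age. Ti-treated against untreated shoots gave 0.0695% of genes higher and 0.195% lower at 3 days, and 0.54% higher and 0.456% lower at 10 days, under the same limits. The robust standard deviation of that difference was 0.12 at 3 days and 0.23 at 10 days on the genes ranked here. These values hold the spread between groups of libraries together with any effect of Ti.

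The Ti-treated shoots are a set of libraries that did not enter the untreated difference. In them 4.13% of genes were called higher and 6.93% lower at 10 days against 3 days. Of the 486 genes higher in untreated shoots, 331 were also higher by 1 or more in Ti-treated shoots and 476 had a difference above 0. Of the 872 lower genes, 695 were also lower by 1 or more with Ti and 865 had a difference below 0. These overlaps set no CPM limit in the Ti-treated groups, whereas the 4.13% and 6.93% do. Across the ranked genes, which are not independent replicates, the 2 differences had a Pearson correlation of 0.88. Both sets of shoots were collected on the same days after transfer, so an event of a harvest day could be common to both, and this was not tested.

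**Figure D1:**
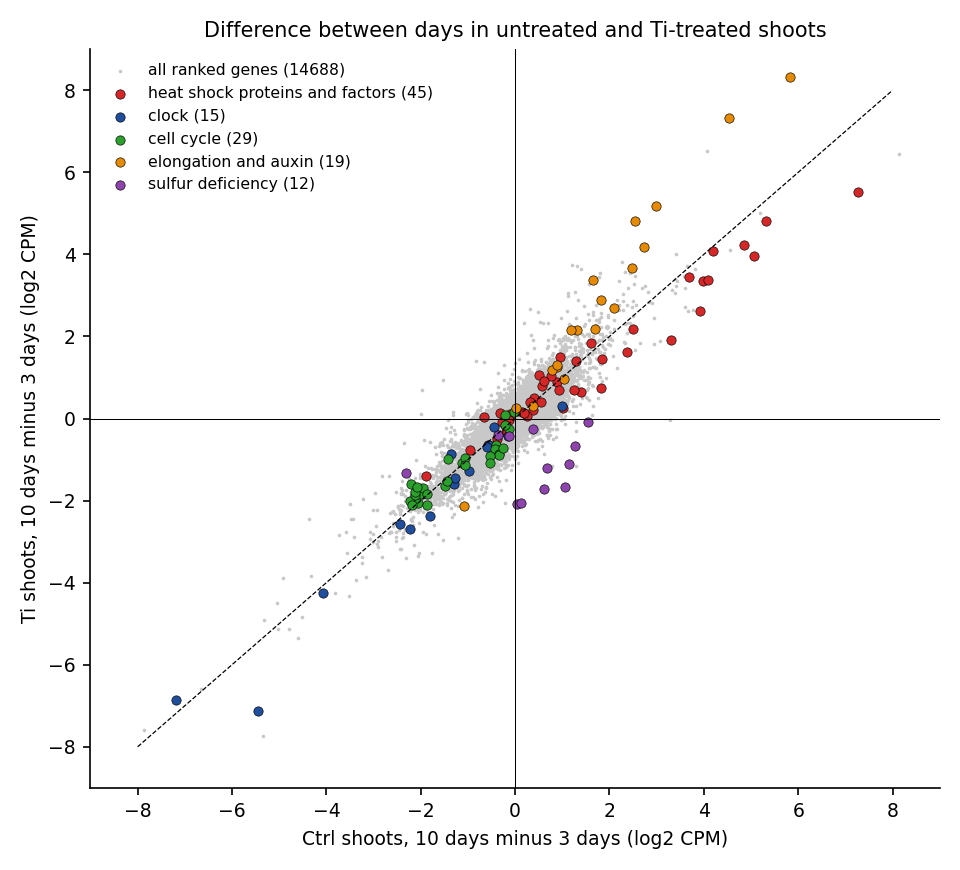
Difference between 10 and 3 days (log2 CPM) in untreated shoots (x axis) and Ti-treated shoots (y axis) for the 14688 ranked genes, with the members of 5 gene groups in colour and equal differences as a dashed line (AT2G44130 and AT3G02790 lie beyond the axes). Of 15 clock genes 14 lie below 0 on both axes, the heat shock genes of large difference lie high on both, and most sulfur deficiency genes lie below the line.

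The tissue label was checked first. LHCB1.3, a light-harvesting protein of photosystem II, had 17174 CPM at 10 days and 21065 CPM at 3 days in shoots, against 280 and 150 CPM in roots. Of 12 root markers, 7 were in the shoot file, and 1 of them, the root terpene synthase TPS-CIN, reached 5 CPM. TPS-CIN had 6.89 CPM at 10 days and 8.16 CPM at 3 days in shoots, against 652 and 738 CPM in roots. Summed over the 7, root markers had 13.9 CPM at 10 days and 17.1 CPM at 3 days. Of 6 floral identity genes, SEP3 alone reached 5 CPM (6.60 CPM at 10 days and 3.64 CPM at 3 days), and AP1, an early marker of floral meristems, had 1.13 CPM at 10 days and 0.0206 CPM at 3 days. The sum of the 6 floral genes was 11.8 CPM at 10 days and 5.17 CPM at 3 days.

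Chaperones were frequent among the largest increases. Small heat shock proteins bind unfolding proteins and hold them for the HSP70 and HSP101 machines, which refold them. HSP17.6A (AT5G12030), a small heat shock protein of the cytosol, had 42.4 CPM at 10 days and 0.275 CPM at 3 days, a difference of 7.27. Its levels in Ti-treated shoots were 16.1 CPM at 10 days and 0.351 CPM at 3 days. HSP17.4 (AT3G46230) had 10.7 CPM at 10 days and 0.269 CPM at 3 days (5.32). HSFA2 (AT2G26150), a heat shock factor that is itself induced by heat and prolongs the response, had 63.6 CPM at 10 days and 2.22 CPM at 3 days (4.84). All 3 were among the 12 genes of largest difference, and each was higher at 10 days than at 3 days in either treatment. Whether HSFA2 acted on the others was not tested.

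The regions upstream of these 3 genes are shown because the heat shock element, the site read by heat shock factors, can be seen in them. They run 5′ to 3′ on the gene's strand up to the base before the annotated start, are clipped where another annotated exon begins, and come from the RefSeq copy of TAIR10.1. Capitals mark TTCNNGAA or GAANNTTC, a motif chosen after the values had been seen, and neighbouring matches overlap.
HSP17.6A, chr5:3884839-3884948, minus strand: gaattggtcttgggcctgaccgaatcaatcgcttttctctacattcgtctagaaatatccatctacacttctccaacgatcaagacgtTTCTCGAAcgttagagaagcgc
HSP17.4, chr3:16984842-16985091, minus strand: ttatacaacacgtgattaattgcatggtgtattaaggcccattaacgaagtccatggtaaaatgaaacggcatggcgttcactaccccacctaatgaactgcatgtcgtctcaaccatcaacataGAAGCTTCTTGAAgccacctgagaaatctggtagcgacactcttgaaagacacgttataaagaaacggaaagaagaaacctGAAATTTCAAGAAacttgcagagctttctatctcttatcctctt
HSFA2, chr2:11135466-11135623, plus strand: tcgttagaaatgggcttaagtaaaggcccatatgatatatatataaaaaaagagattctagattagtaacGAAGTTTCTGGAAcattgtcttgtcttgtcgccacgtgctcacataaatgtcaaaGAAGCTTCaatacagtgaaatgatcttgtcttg
HSP17.4 held 4 matches, HSFA2 held 3 and HSP17.6A held 1. In windows of 250 bases before to 50 after the start, the motif stood in 116 of 486 promoters of higher genes (23.9%) and in 163 of 872 of lower genes (18.7%), against 2776 of 14673 of all ranked genes (18.9%). It stood in 7 of 20 ranked small heat shock genes (35%) and in 6 of 14 HSP70 genes (42.9%), and among the 17 of these called higher in 7 (41.2%), while the phosphate starvation list had it in 5 of 13 (38.5%). Another motif, site II (TGGGCC), stood in 12 of the same 17 genes (70.6%), against 21% of all ranked genes, so the heat shock element was not the most frequent there. These shares are descriptions, and a match is not evidence of binding.

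Across the family, 32 genes annotated as small heat shock or HSP20-like proteins were in the file and 20 were ranked, of which 10 were called higher and 0 lower, against 3.31% of all ranked genes called higher. The 10 called genes differed by 1.62 to 7.27 and 8 others had a difference below 0, so the median of 1.25 stands between unlike members. Beside the genes above, AT1G07400 (36.4 CPM at 10 days and 1.09 CPM at 3 days), HSP17.6II (8.54 and 0.542 CPM), AT2G29500 (32.7 and 2.15 CPM) and AT5G51440 (47.3 and 2.78 CPM) differed by 3.93 to 5.07. At the other end, AT5G54660 had 6.84 CPM at 10 days and 13.2 CPM at 3 days (-0.95). BOB1, a chaperone that is also needed for development without heat, had 36.7 CPM at 10 days and 19.98 CPM at 3 days (0.88).

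Larger chaperones were higher as well. HSP70 (AT3G12580), an inducible cytosolic HSP70, had 626 CPM at 10 days and 34.3 CPM at 3 days (4.19), and HSP90.1 (AT5G52640), an inducible HSP90, had 240 CPM at 10 days and 10.2 CPM at 3 days (4.55). HSP101 (AT1G74310), which pulls aggregated proteins apart, had 136 CPM at 10 days and 13.3 CPM at 3 days (3.36). HSC70-1 (AT5G02500), a cytosolic HSP70 that is always present, had 2440 CPM at 10 days and 1003 CPM at 3 days (1.28), the largest gain of any gene in CPM. Of 14 ranked HSP70 genes, 7 were called higher (50%, against 3.31% of all ranked genes) and 0 lower, with a median of 0.98. The chloroplast members cpHsc70-2 (0.38) and cpHsc70-1 (0.55) were not called, nor was BIP1 of the endoplasmic reticulum (0.77), and AT1G11660 was the 1 member below 0 (-0.18). Hsp70-15 and BIP2 each have a near-identical copy between which reads may be divided, and summed with its copy the difference was 0.67 for Hsp70-15 and 0.68 for BIP2.

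Not all heat shock factors moved. Of 11 ranked members, HSFA2 and HSFA7A (18.9 CPM at 10 days and 5.29 CPM at 3 days, 1.83) were called higher. HSFA8 was called lower, with 1.97 CPM at 10 days and 7.27 CPM at 3 days (-1.88). The constitutive activators HSF1 (6.22 and 5.50 CPM) and HSFA1D (8.60 and 7.19 CPM), which start the heat response without a need for new transcript, differed by 0.18 and 0.26. The lists of heat shock genes were chosen after their values had been seen.

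**Figure D2:**
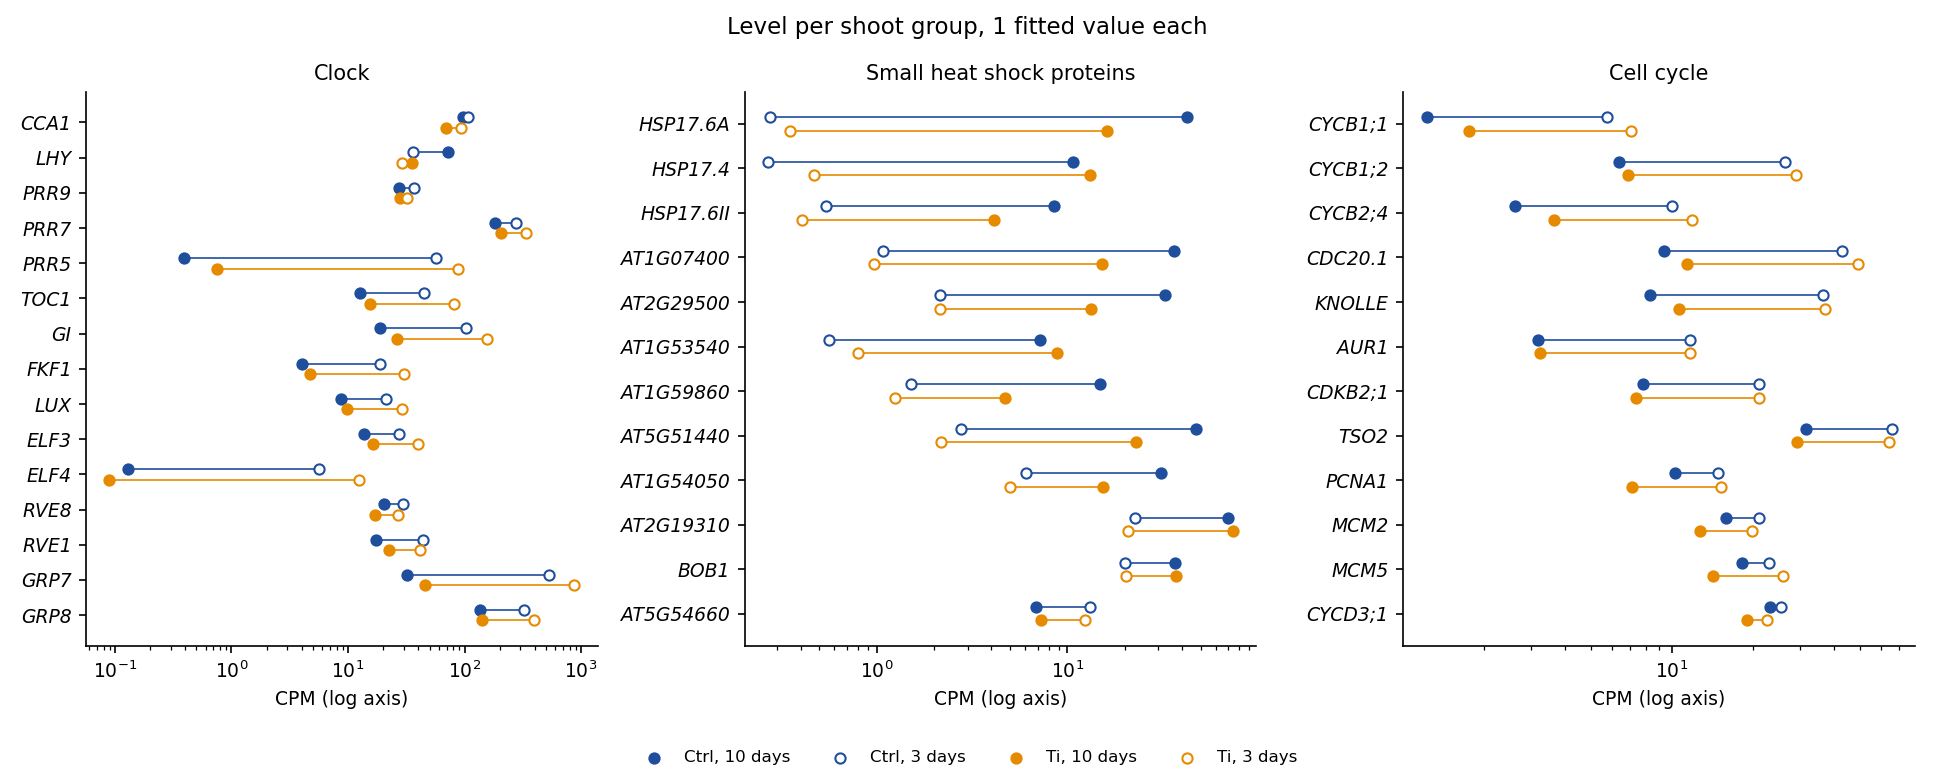
Level in CPM (log axis) of clock, small heat shock protein and cell cycle genes in the 4 shoot groups, with 10 days as filled and 3 days as open circles, untreated in blue and Ti-treated in orange. PRR5 stood at 0.393 CPM at 10 days and 57.0 CPM at 3 days, HSP17.6A at 42.4 and 0.275 CPM, and CYCD3;1 barely moved.

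Clock genes were among the deepest decreases. PRR5 (AT5G24470), a repressor of CCA1 and LHY with a peak in the afternoon, had 0.393 CPM at 10 days and 57.0 CPM at 3 days, a difference of -7.18. ELF4 (AT2G40080), of the evening complex, had 0.130 CPM at 10 days and 5.67 CPM at 3 days (-5.45). PRR3, a relative of PRR5 that stabilises TOC1 protein, had 0.299 CPM at 10 days and 6.87 CPM at 3 days (-4.52). In Ti-treated shoots PRR5 had 0.755 CPM at 10 days and 87.3 CPM at 3 days (-6.85), and ELF4 had 0.0897 CPM at 10 days and 12.4 CPM at 3 days. All 3 genes were under 1 CPM at 10 days in untreated and in Ti-treated shoots, where PRR3 had 0.437 CPM.

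The other members of the loop differed less. GI, which carries light signals to flowering, had 18.9 CPM at 10 days and 103 CPM at 3 days (-2.44). FKF1, its partner in daylength sensing, had 4.06 CPM at 10 days and 19.0 CPM at 3 days (-2.22), and TOC1, the evening PRR, had 12.7 CPM at 10 days and 44.4 CPM at 3 days (-1.81). The evening complex genes LUX and ELF3 differed by -1.30 and -0.98. By contrast CCA1, a morning factor, had 96.8 CPM at 10 days and 107 CPM at 3 days (-0.15), and LHY, its close relative, had 72.4 CPM at 10 days and 36.3 CPM at 3 days (0.99). PRR9 (-0.45) and PRR7 (-0.60), the PRR genes of morning and midday, were not called, whereas RVE1, a relative of CCA1 that links the clock to auxin, was called lower (-1.36). LHY was the 1 ranked clock gene above 0.

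The RNA-binding proteins GRP7 and GRP8, outputs of the clock that bind their own transcripts, had 32.0 CPM at 10 days against 533 CPM at 3 days (-4.06) and 135 CPM at 10 days against 326 CPM at 3 days (-1.27). In all, 9 of 15 ranked clock genes were called lower and 0 higher, against 5.94% of all ranked genes called lower, with a median of -1.30. In Ti-treated shoots the median of these genes was -1.46, and in roots of the same plants it was -0.48, with PRR5 at -2.39 and ELF4 at -2.96.

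The evening element, AAATATCT on either strand, lies upstream of many genes that peak in the evening. It is shown in capitals in the 250 bases before the start of PRR5 and TOC1, from the same source and in the same direction as above.
PRR5, chr5:8358547-8358796, minus strand: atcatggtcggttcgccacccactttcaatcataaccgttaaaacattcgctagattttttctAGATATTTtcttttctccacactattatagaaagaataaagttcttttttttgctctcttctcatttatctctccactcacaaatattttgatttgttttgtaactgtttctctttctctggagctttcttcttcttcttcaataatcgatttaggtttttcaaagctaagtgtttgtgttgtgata
TOC1, chr5:24674713-24674962, plus strand: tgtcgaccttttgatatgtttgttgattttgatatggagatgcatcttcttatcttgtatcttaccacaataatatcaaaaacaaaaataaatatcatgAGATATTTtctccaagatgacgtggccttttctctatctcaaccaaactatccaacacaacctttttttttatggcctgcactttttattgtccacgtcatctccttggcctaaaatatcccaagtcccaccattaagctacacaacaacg
PRR5 and TOC1 hold 1 copy each, whereas GI had none in these 250 bases. Counted over windows that reach 50 bases past the start, the element stood in 133 of 872 promoters of lower genes (15.3%) and in 31 of 486 of higher genes (6.38%), against 878 of 14673 of all ranked genes (5.98%). Among genes lower by 2 or more it stood in 35 of 159 (22.0%). It stood in 8 of all 15 ranked clock genes (53.3%), and among the 9 of them called lower in 7 (77.8%).

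Other motifs were counted in the same windows. The telo-box, AAACCCTA, which is frequent before genes of translation, stood in 9.88% of promoters of higher genes and 2.98% of lower genes, against 6.07% of all ranked genes, and in 54.4% of the ribosomal protein genes described below. Site II, TGGGCC, stood in 17.7% of higher and 11.9% of lower genes, against 21.0% of all ranked genes. The W-box read by WRKY factors, TTGACC or TTGACT, stood in 31.9% of higher and 30.3% of lower genes, against 31.8% of all. The G-box CACGTG (9.67% of higher and 10.4% of lower genes, against 9.19%) and the phosphate site GNATATNC (6.58% and 6.19%, against 6.1%) stood close to their share among all genes, as did E2F, TTTCCCGC (0.617% and 1.03%, against 0.777%). The I-box GATAAG stood in 17.7% of higher and 19.5% of lower genes, against 15.7%, and the core of the mitotic MSA element, AACGG, in 24.5% and 29.7%, against 27% of all. Shares within a gene list could differ from these. GNATATNC stood in 7 of 13 phosphate starvation genes (53.8%), and of 29 cell cycle genes E2F stood in 4 (13.8%) and AACGG in 15 (51.7%). All motifs were searched on both strands.

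Other genes of the 12 largest decreases are given here with their annotation in the reference. AT1G07050, a protein with the CCT motif found in clock and flowering regulators, had 0.215 CPM at 10 days and 8.77 CPM at 3 days (-5.35). AT5G23240, annotated with a DNAJ domain, had 1.59 CPM at 10 days and 51.7 CPM at 3 days (-5.02), and the defensin-like AT1G13609 had 0.184 CPM at 10 days and 18.7 CPM at 3 days (-6.66). The F-box protein AT4G34550 (0.171 and 6.83 CPM) and the cysteine proteinase AT2G27420 (0.556 and 15.4 CPM) were also in the set. AT2G30766 (1.43 and 47.4 CPM) and AT2G14247 (0.307 and 7.45 CPM), which the reference leaves without a described function, complete it with BHLH100 and FSD1 below. For 3 genes 1 of the groups was under 0.1 CPM, and no fold is given. MYB15, a stress-induced regulator, had 5.82 CPM at 10 days and 0.0205 CPM at 3 days. AT4G33980, uncharacterized in the reference, had 0.0334 CPM at 10 days and 7.78 CPM at 3 days. AT2G44130 had 0.00552 CPM at 10 days, the lowest value in the file, and 11.8 CPM at 3 days, but its exons lie opposite those of AT2G44140, and the sum of both was 45.1 CPM at 10 days and 60.2 CPM at 3 days (-0.42).

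Early genes of touch, wounding and other sudden stress were higher at 10 days. RRTF1 (AT4G34410), an ERF of the oxidative stress response, had 14.3 CPM at 10 days and 1.14 CPM at 3 days (3.65). WRKY40, a regulator induced within minutes of many stimuli, had 46.9 CPM at 10 days and 10.5 CPM at 3 days (2.16), and ZAT12, a zinc finger of several stress responses, had 24.5 CPM at 10 days and 4.75 CPM at 3 days (2.36). The touch genes TCH2 (91.6 and 31.5 CPM), a calmodulin-like protein, and TCH4 (231 and 93.1 CPM), a wall-loosening enzyme, differed by 1.54 and 1.31. Of 17 ranked genes in this group, chosen after the values had been seen, 12 were called higher (70.6%, against 3.31% of all ranked genes) and 0 lower, with a median of 1.54. ERF5 (0.02) and ERF6 (0.07) were level in the same shoots. In roots of the same plants the median of these 17 was 3.25, with WRKY40 at 5.51 and RRTF1 at 7.19. The value of ERF105 (15.9 CPM at 10 days and 1.89 CPM at 3 days) is uncertain, because AT5G51180 overlaps it on the other strand and their sum differed by 0.55.

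Genes of auxin and of cell elongation were higher as well. PIF4 and PIF5, factors that drive elongation in shade and warmth, were little changed themselves, at 0.03 and 0.37, whereas genes known to act with or under them were not. IAA19, an auxin-induced repressor of auxin response, had 26.7 CPM at 10 days and 4.04 CPM at 3 days (2.73), and IAA29 had 8.19 CPM at 10 days and 1.396 CPM at 3 days (2.55). The auxin synthesis genes YUC8 (12.5 and 3.99 CPM) and YUC9 (6.52 and 0.819 CPM) differed by 1.65 and 2.99, while TAA1, which makes the substrate of YUC enzymes, was called lower with 13.2 CPM at 10 days and 28.1 CPM at 3 days (-1.08). HFR1 (1.81), HAT2 (2.09) and HB2 (1.31), regulators of the shade response, and XTH15 (2.49), a wall enzyme, were called higher.

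ACS8, an ethylene synthesis enzyme, had 9.91 CPM at 10 days and 0.428 CPM at 3 days (4.53). FLP1, related to a flowering-promoting factor, had 6.87 CPM at 10 days and 0.121 CPM at 3 days (5.82). AT3G21330, a bHLH protein outside the list, had 13.5 CPM at 10 days and 0.805 CPM at 3 days (4.07), and AT5G18840, a transporter of the major facilitator family, had 35.6 CPM at 10 days and 0.970 CPM at 3 days (5.197). Of 19 ranked genes of elongation and auxin, chosen after the values had been seen, 13 were called higher and 1 lower. Their median was 1.65 in untreated and 2.18 in Ti-treated shoots, and 0.02 in untreated roots. IAA29 had 43.5 CPM at 10 days and 1.54 CPM at 3 days with Ti (4.82), and ACS8 had 32.7 CPM at 10 days and 0.205 CPM at 3 days with Ti (7.32). How far the untreated and Ti-treated differences lie apart was not tested.

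Cell division genes were lower in the older shoots, by phase of the cycle. Mitotic genes were lowest. CYCB1;2, a B-type cyclin of mitosis, had 6.36 CPM at 10 days and 26.4 CPM at 3 days (-2.06). CDC20.1, an activator of the complex that ends mitosis, had 9.35 CPM at 10 days and 42.8 CPM at 3 days (-2.19), and KNOLLE, the syntaxin of the new cell plate, had 8.33 CPM at 10 days and 36.5 CPM at 3 days (-2.13). The mitotic kinases AUR1 (3.18 and 11.7 CPM), AUR2 (2.52 and 10.6 CPM) and CDKB2;1 (7.79 and 21.2 CPM) differed by -1.87, -2.07 and -1.44. All 29 ranked genes of the list had a difference below 0, and 17 of them were called lower.

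Genes of DNA replication were closer to their 3-day level. The helicase subunits MCM2 to MCM7 differed by -0.33 to -0.52, and PCNA1, the sliding clamp of replication, had 10.3 CPM at 10 days and 14.8 CPM at 3 days (-0.53). TSO2, a ribonucleotide reductase subunit, was lower than these, with 31.5 CPM at 10 days and 65.5 CPM at 3 days (-1.06). CYCD3;1, CYCD3;2 and CYCD3;3, cyclins that let cells enter the cycle, differed by -0.13, -0.02 and -0.21. The median of the whole list was -1.12 in untreated shoots, -1.09 in Ti-treated shoots and -0.79 in untreated roots. The phases lay closer together in the other groups. With Ti, MCM2 to MCM7 differed by -0.64 to -0.91 and PCNA1 by -1.09, against -2.07 for CYCB1;2. In roots, MCM2 to MCM7 differed by -0.64 to -0.79, AUR1 by -0.52 and AUR2 by -0.70, against -1.01 for CYCB1;2. Of 36 ranked histone genes, 3 (8.33%) were called lower and 1 (2.78%), the drought-induced linker histone HIS1-3 (6.88 CPM at 10 days and 3.31 CPM at 3 days, 1.06), was called higher, shares near the 5.94% and 3.31% of all ranked genes, with a median of -0.64. In bulk shoots, fewer dividing cells and less RNA per dividing cell cannot be told apart.

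Of 25 ranked genes of leaf patterning and growth, 21 had a difference below 0, with a median of -0.32. Of the 25, 2 (8%) were called lower, near the 5.94% of all ranked genes, and 0 were called higher. The called genes were GRF4 (5.18 CPM at 10 days and 12.4 CPM at 3 days, -1.26), a growth-regulating factor, and TCP2 (22.5 and 50.4 CPM, -1.17), which restrains division at the leaf margin. AN3, a coactivator of the GRF proteins, had 15.9 CPM at 10 days and 16.0 CPM at 3 days. The polarity genes ran from PHV (0.13), KAN1 (-0.10), REV (-0.14) and PHB (-0.22) to YAB1 (-0.40), YAB5 (-0.52), YAB3 (-0.56), AS1 (-0.65) and KAN2 (-0.87), and STM, of the shoot meristem, had 5.46 CPM at 10 days and 3.05 CPM at 3 days (0.84).

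Of 8 ranked genes of stomata and trichomes, 4 were called lower (50%, against 5.94% of all ranked genes). SPCH, which starts the stomatal lineage, had 4.58 CPM at 10 days and 12.04 CPM at 3 days (-1.396), POLAR, a protein of its asymmetric divisions, had 2.85 CPM at 10 days and 8.09 CPM at 3 days (-1.50), and SDD1, a protease that limits stomatal number, had 5.26 CPM at 10 days and 13.7 CPM at 3 days (-1.39). GL2, of trichomes and the epidermis, was also lower (10.8 and 23.0 CPM, -1.09). FAMA, which completes guard cells, stood the other way, with 29.7 CPM at 10 days and 18.9 CPM at 3 days (0.66). The early and the late end of the lineage lay on opposite sides of 0, and FAMA did not pass the limit. Among expansins, which loosen walls, EXPA11 (12.7 and 40.5 CPM, -1.68) and EXPA8 (75.0 and 193 CPM, -1.37) of 9 were called lower. None of 9 ranked secondary wall genes was called, with a median of -0.21.

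Genes of protein synthesis were slightly but almost uniformly higher. Of 136 ranked genes of cytosolic ribosomal proteins, 136 had a difference above 0, and 10 were called higher (7.35%, against 3.31% of all ranked genes) and 0 lower. Their median was 0.65 in untreated shoots, 0.56 in Ti-treated shoots and -0.0031 in untreated roots. Summed, the family had 23431 CPM at 10 days and 15112 CPM at 3 days. The highest difference was that of AT5G39850, an S4 family protein, with 33.5 CPM at 10 days and 8.54 CPM at 3 days (1.97). TCTP, a growth-linked protein of the cytosol, had 1595 CPM at 10 days and 787 CPM at 3 days (1.02), among the 5 largest gains in CPM. SAMDC, a polyamine synthesis enzyme, had 2212 CPM at 10 days and 1199 CPM at 3 days (0.88).

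**Figure D3:**
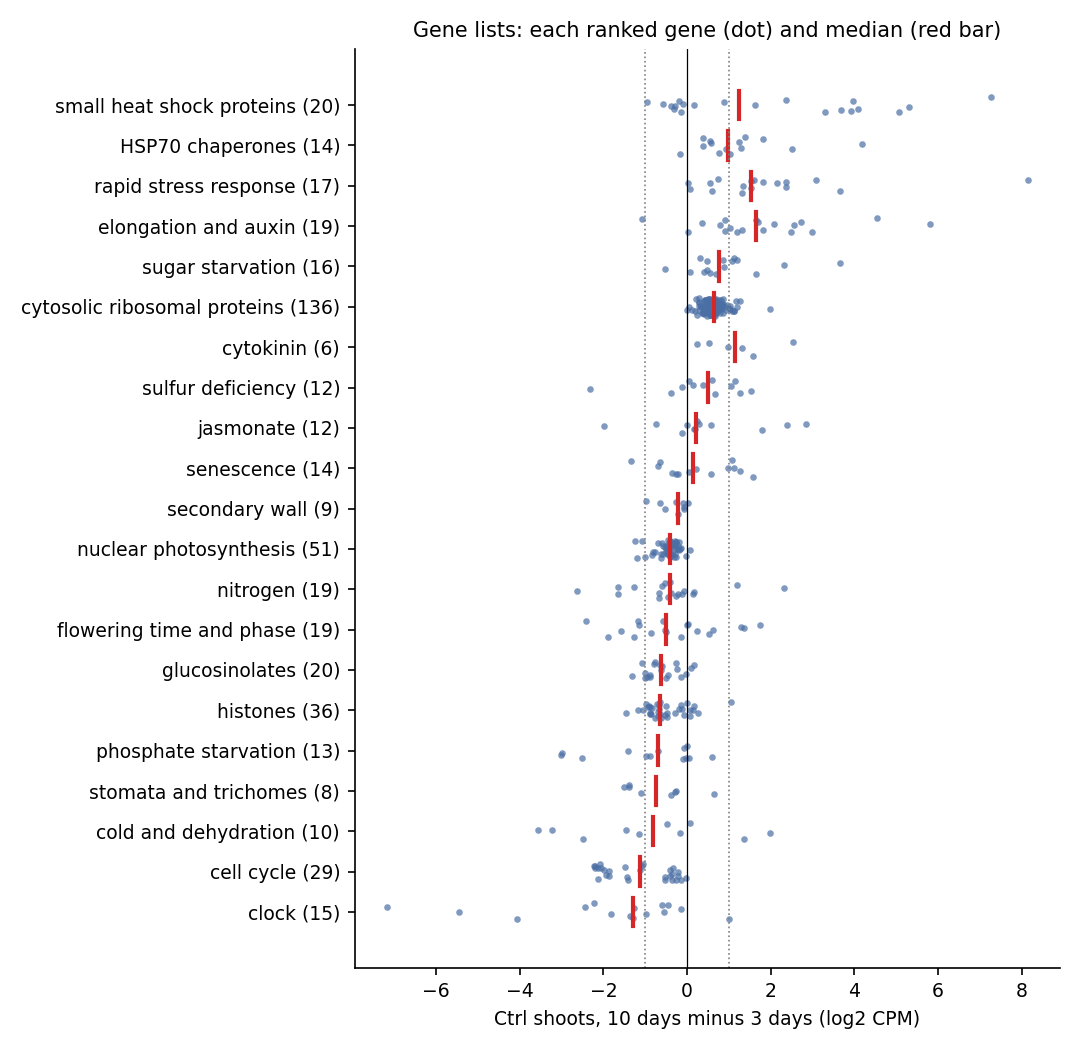
Difference between 10 and 3 days (log2 CPM) in untreated shoots for the ranked genes of 21 lists, with each gene as a dot, the median as a red bar and the limits of a call at -1 and 1 as dotted lines. The medians of the chaperone, rapid stress and elongation lists lie to the right of 0, and those of the cell cycle (-1.12) and clock (-1.30) lists farthest to the left.

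Photosynthesis genes took a smaller share of the RNA in the older shoots. Of 51 nuclear genes of photosynthesis and carbon fixation, 50 had a difference below 0, with a median of -0.41 against 0.02 for all ranked genes. Of the 51, 4 (7.84%) were called lower, near the 5.94% of all ranked genes, and 0 were called higher. The sum of the 51 was 184309 CPM at 10 days and 245630 CPM at 3 days. Genes this abundant weigh on the scale of all others, and quantile normalization, which fixes the highest ranks, moved their median to 0.00. RBCS1A, the main small subunit of Rubisco, had 12281 CPM at 10 days and 16373 CPM at 3 days (-0.41), the largest loss in CPM, followed by LHCB1.3 (-0.29), LHCB1.5 (11547 and 15347 CPM, -0.41), Rubisco activase RCA (8363 and 11657 CPM, -0.48) and RBCS3B (3857 and 6757 CPM, -0.81).

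The photosynthesis genes called lower were LHCB2.3 (955 CPM at 10 days and 2277 CPM at 3 days, -1.25), CA1, a carbonic anhydrase (2088 and 4753 CPM, -1.19), RBCS2B (2050 and 4317 CPM, -1.07) and RBCS1B (1027 and 2061 CPM, -1.005). In Ti-treated shoots the median of the 51 genes was -0.05, and LHCB1.3 stood at 0.23. Of 75 listed genes encoded in the chloroplast only 14 were ranked. Of these 14, 13 had a difference below 0 and 0 were called, with a median of -0.38. All 75 summed to only 248 CPM at 10 days and 331 CPM at 3 days. The libraries were prepared for mRNA, and how fully they hold chloroplast transcripts was not tested, so these values may not reflect chloroplast RNA levels. Of 5 ranked genes of seed reserve use, 0 were called, and PCK1, which turns stored lipid to sugar, had 162 CPM at 10 days and 260 CPM at 3 days (-0.69). The glyoxylate cycle gene ICL was under the limit, with 0.339 CPM at 10 days and 2.22 CPM at 3 days.

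Genes of phase change and flowering time moved in both directions. The AP2-like repressors of flowering that miR172 targets were lower. TOE1 had 50.01 CPM at 10 days and 114 CPM at 3 days (-1.18), TOE2 had 16.2 CPM at 10 days and 39.3 CPM at 3 days (-1.28), SMZ had 2.51 CPM at 10 days and 9.32 CPM at 3 days (-1.89), and SNZ had 10.9 CPM at 10 days and 24.3 CPM at 3 days (-1.15). The 4 genes stood at -1.05 to -2.09 in Ti-treated shoots. The small SPL genes were higher, with 7.51 CPM at 10 days and 3.07 CPM at 3 days for SPL3 (1.29) and 9.78 CPM at 10 days and 2.94 CPM at 3 days for SPL4 (1.74).

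Larger SPL genes, most of them also targets of miR156, lay on both sides of 0. SPL9 had 2.47 CPM at 10 days and 13.3 CPM at 3 days (-2.43), SPL11 had 4.13 CPM at 10 days and 12.4 CPM at 3 days (-1.59), and SPL2 had 24.4 CPM at 10 days and 20.6 CPM at 3 days (0.25). SPL13A had 5.04 CPM at 10 days and 3.26 CPM at 3 days (0.63). AGL24, a promoter of flowering at the meristem, had 11.6 CPM at 10 days and 4.51 CPM at 3 days (1.37), while SOC1, which acts with it, had 63.8 CPM at 10 days and 44.4 CPM at 3 days (0.52) and the repressor SVP had 59.99 CPM at 10 days and 109 CPM at 3 days (-0.86). In total 3 of 19 ranked genes were called higher (15.8%) and 6 lower (31.6%). FT, the mobile signal of flowering, had 1.26 CPM at 10 days and 0.560 CPM at 3 days, under the limit.

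Of 9 ranked genes of metal status, 3 were called lower and 1 higher, with a median of -0.20, and BHLH100 and FSD1 were among the 12 largest decreases. BHLH100 (AT2G41240), a regulator induced by iron deficiency, had 0.252 CPM at 10 days and 7.66 CPM at 3 days (-4.92). Its relatives BHLH38 (0.0478 and 4.17 CPM) and BHLH39 (0.0602 and 4.69 CPM) were under 5 CPM in both groups. FSD1 (AT4G25100), an iron superoxide dismutase, had 7.09 CPM at 10 days and 147 CPM at 3 days (-4.37), and in Ti-treated shoots it had 10.4 CPM at 10 days and 57.0 CPM at 3 days. The nicotianamine synthase NAS4, which makes a metal chelator, had 5.23 CPM at 10 days and 17.2 CPM at 3 days (-1.72). The iron store FER1 stood the other way, with 289 CPM at 10 days and 117 CPM at 3 days (1.31), while the related FER4 (0.67) and FER3 (-0.20) were not called. CSD1 and CSD2, superoxide dismutases with copper and zinc that are known to replace FSD1 when copper is ample, differed by 0.03 and -0.02.

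**Figure D4:**
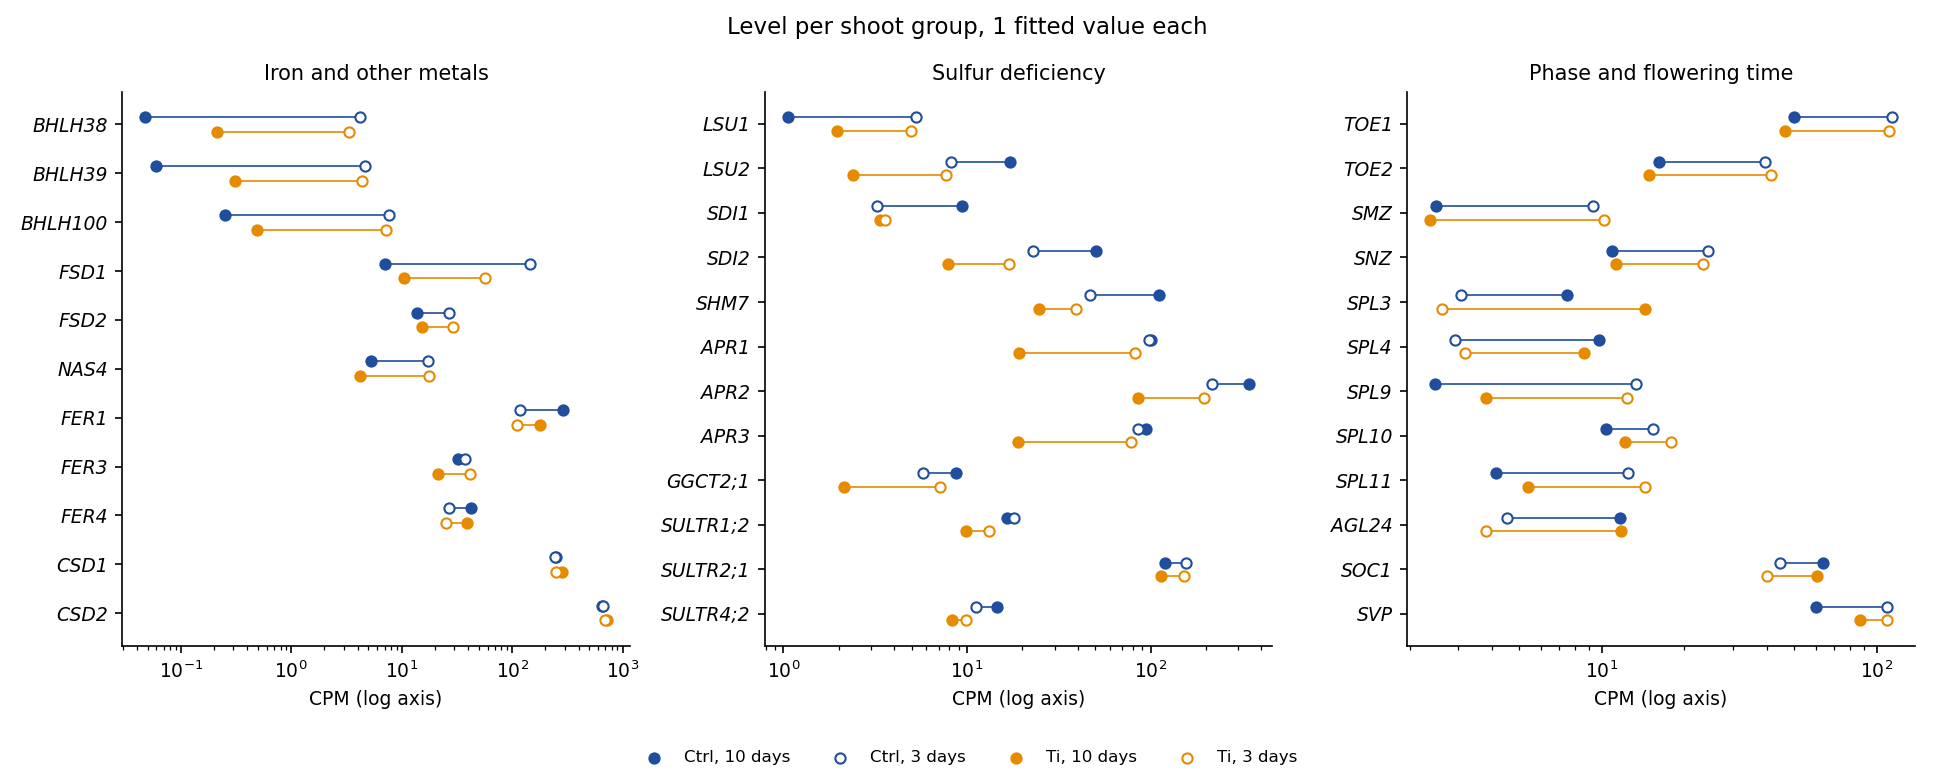
Level in CPM (log axis) of metal, sulfur deficiency and phase change genes in the 4 shoot groups, with 10 days as filled and 3 days as open circles, untreated in blue and Ti-treated in orange. BHLH100 and FSD1 were lower at 10 days in both treatments, while SDI2 was at 50.5 CPM at 10 days and 22.8 CPM at 3 days in untreated shoots and at 7.83 and 16.9 CPM in Ti-treated shoots.

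Phosphate starvation genes were mostly lower, 10 of 13 with a difference below 0. SPX1, a sensor-linked inhibitor of the phosphate response, had 2.11 CPM at 10 days and 17.1 CPM at 3 days (-3.02). PAP17, an acid phosphatase, had 1.37 CPM at 10 days and 10.8 CPM at 3 days (-2.98), the transporter PHT1;4 had 2.27 CPM at 10 days and 13.0 CPM at 3 days (-2.52), and PAP10 had 18.6 CPM at 10 days and 49.4 CPM at 3 days (-1.41). SQD2, which makes the sulfolipid that replaces phospholipid, was level at 67.2 CPM at 10 days and 67.0 CPM at 3 days, and the transporter PHO1 stood at -0.03. Of 13 ranked genes, 4 were called lower (30.8%) and 0 higher.

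In nitrogen metabolism the called genes lay on both sides of 0. The nitrate reductases NIA1 (33.3 CPM at 10 days and 207 CPM at 3 days, -2.64) and NIA2 (325 and 777 CPM, -1.26), the cytosolic glutamine synthetase GLN1;1 (23.4 and 73.2 CPM, -1.65) and the nitrate remobilisation transporter NRT1.7 (12.3 and 38.3 CPM, -1.64) were called lower. ASN1, an asparagine synthetase induced by darkness and low sugar, had 1247 CPM at 10 days and 249 CPM at 3 days (2.32), among the 5 largest gains in CPM. ASN2, another asparagine synthetase, lay on the other side of 0, with 110 CPM at 10 days and 145 CPM at 3 days (-0.40), and was not called. GDH2, a glutamate dehydrogenase, had 150 CPM at 10 days and 65.4 CPM at 3 days (1.196). Of 19 ranked genes, 2 were called higher and 4 lower.

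Other genes that are induced by low sugar stood high too. PRODH1, a proline dehydrogenase, had 667 CPM at 10 days and 52.8 CPM at 3 days (3.66), and DIN10, of the raffinose synthase family, had 1337 CPM at 10 days and 428 CPM at 3 days (1.64). SEN1, a marker of dark-induced senescence, had 242 CPM at 10 days and 111 CPM at 3 days (1.13). BT2, a scaffold protein that sugar represses, was among those not called, with 73.2 CPM at 10 days and 105 CPM at 3 days (-0.52). Of 16 ranked genes in this list, chosen after the values had been seen, 6 were called higher (37.5%) and 0 lower, with a median of 0.77 in untreated and 1.13 in Ti-treated shoots.

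Sulfur deficiency genes were mostly level or higher. SDI1, a repressor of glucosinolate synthesis, had 9.39 CPM at 10 days and 3.24 CPM at 3 days (1.54), SHM7, a hydroxymethyltransferase, had 112 CPM at 10 days and 46.5 CPM at 3 days (1.26), and SDI2 (1.15) and LSU2 (1.06) were called higher as well. LSU1 was called lower, with 1.06 CPM at 10 days and 5.25 CPM at 3 days (-2.31). The sulfate reductases APR1, APR2 and APR3 differed by 0.04, 0.68 and 0.13. The median of the 12 ranked genes was 0.50 in untreated shoots, -1.15 in Ti-treated shoots and -1.53 in untreated roots. This list thus stood on opposite sides of 0 in the 2 sets of shoots.

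Jasmonate genes were divided, with 8 of 12 ranked genes above 0, 4 below 0 and a median of 0.22. VSP2, a vegetative storage protein induced by jasmonate, had 102 CPM at 10 days and 19.6 CPM at 3 days (2.38), and VSP1 had 11.3 CPM at 10 days and 3.25 CPM at 3 days (1.80). AOC3, an enzyme of jasmonate synthesis, had 6.19 CPM at 10 days and 0.864 CPM at 3 days (2.84). Other synthesis genes were not called, namely AOC1 (0.20), AOC2 (-0.75), AOS (-0.11), OPR3 (0.16) and LOX2 (0.24). CORI3 was called lower, with 3.42 CPM at 10 days and 13.6 CPM at 3 days (-1.99), but had 8.80 CPM at 10 days and 8.14 CPM at 3 days with Ti (0.11). MYC2, the main jasmonate regulator, had 69.1 CPM at 10 days and 69.2 CPM at 3 days, with AT1G32630 overlapping it on the other strand. In total 3 of 12 ranked genes were called higher (25%, against 3.31% of all ranked genes) and 1 lower (8.33%, against 5.94%). Of 6 ranked genes of salicylic acid defence, PR5 alone was called, with 5.17 CPM at 10 days and 13.1 CPM at 3 days (-1.34), and EDS1 and WRKY70 differed by -0.04 and -0.01. PR1 (0.753 CPM at 10 days and 0.0212 CPM at 3 days) and PR2 (0.745 and 0.0937 CPM) stood the other way but were under 5 CPM in both groups.

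Genes of cold and dehydration were divided. COR15A (0.952 CPM at 10 days and 8.89 CPM at 3 days, -3.22) and COR15B (0.809 and 9.59 CPM, -3.57), which protect chloroplasts in the cold, RD29A (9.76 and 54.6 CPM, -2.48), KIN2 (8.79 and 24 CPM, -1.45) and RD22 (165 and 364 CPM, -1.14) were called lower. CBF2, a regulator of the COR genes that is also gated by the clock and by touch, had 6.57 CPM at 10 days and 1.67 CPM at 3 days (1.98), and RD20 had 14.0 CPM at 10 days and 5.49 CPM at 3 days (1.35). CBF1 (1.32 and 0.245 CPM) and CBF3 (0.116 and 1.399 CPM), relatives of CBF2, were under 5 CPM in both groups and lay on opposite sides of 0. COR47 (-0.49), RAB18 (-0.16) and ERD10 (0.07) were not called.

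Senescence genes were mixed. NAP, a NAC factor of leaf senescence, had 12.5 CPM at 10 days and 4.204 CPM at 3 days (1.57), SAG20 had 95.4 CPM at 10 days and 39.6 CPM at 3 days (1.27), and WRKY22 (1.07) and SEN1 were also called higher, 4 of 14 ranked genes. SWEET15, a sugar exporter of old leaves, was called lower, with 3.23 CPM at 10 days and 8.15 CPM at 3 days (-1.34). The chlorophyll breakdown genes NYE1 (-0.35), PPH (0.06) and PAO (-0.28) did not pass the limit. Of the 6 ranked cytokinin genes, 3 were called higher, namely CKX5 (13.4 and 2.29 CPM, 2.55) and CKX6 (35.7 and 14.3 CPM, 1.32), which break cytokinin down, and the response regulator ARR7 (29.1 and 9.78 CPM, 1.57).

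In secondary metabolism, CHS, chalcone synthase at the entry to flavonoids, had 414 CPM at 10 days and 119 CPM at 3 days (1.80), while UGT75C1, an anthocyanin glucosyltransferase, had 3.05 CPM at 10 days and 6.67 CPM at 3 days (-1.13). These were the called genes of 9 ranked, and FLS1, flavonol synthase, had 13.5 CPM at 10 days and 25.9 CPM at 3 days (-0.94). Glucosinolate genes were mostly lower, 18 of 20 with a difference below 0 and a median of -0.63. The sulfotransferases SOT17 (10.6 and 26.3 CPM, -1.31) and SOT18 (25.5 and 53.9 CPM, -1.08), of the last step of the core structure, were called lower, and the myrosinase TGG1 had 1157 CPM at 10 days and 2308 CPM at 3 days (-0.996, just under the limit in size).

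In untreated roots, normalized apart from shoots, 3.49% of genes were called higher and 2.5% lower at 10 days. These shares are of genes with 5 CPM or more in the higher root group, a limit not set on root levels in the following counts. Of the 486 higher shoot genes, 468 were in the root file, of which 139 were higher by 1 or more in roots and 8 lower by 1 or more, with a median of 0.50. Of the 872 lower shoot genes, 778 were in the root file, of which 175 were lower and 25 higher by 1 or more, with a median of -0.49. The median over all genes ranked in shoots was 0.03. Shoots and roots came from the same plants and were collected on the same days, so these values are set side by side without a test.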

How the data were processed

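Shoots and roots of seedlings on control or TiO2 medium were sequenced by the authors in 3 libraries per group. Per the labels and the study's methods, reads were checked with FastQC 0.11.9, trimmed with Trim Galore 0.6.6, quantified with kallisto 0.44.0 against Araport11 and normalized in edgeR, each tissue apart, weakly expressed genes having been removed. What was deposited is log2 CPM, fitted per group and repeated in its 3 columns, in place of the replicate values that the planned tests needed, so no test was run. CPM are not divided by length, so log2 differences are taken within a gene. The ranking of genes by gain or loss in CPM and the sums over gene families also depend on transcript length.

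Differences (10 minus 3 days) were taken on the deposited log2 scale for genes with 5 CPM or more in the higher group and called at 1 or more in size. Named genes are the 12 largest differences each way with the lower group at 0.1 CPM or more, those under 0.1 CPM, the 5 largest gains and losses in CPM, and list members by role. Members and lists were chosen with earlier results of these data known. The heat shock, rapid response, elongation, sugar and heat shock element sets, and the counts without clock and heat shock lists, were chosen after the values were seen. Near-identical transcripts (95% identity over 80% of the length, blastn 2.17.0) and exons overlapping on the other strand were looked up for 411 genes. Promoters come from the RefSeq annotation of TAIR10.1, in which 19405 of 19405 nuclear gene models were found. Python 3.11.15, pandas 2.3.3 and numpy 2.4.6 were used, and the counting was tested on simulated data. One promoter sequence is not reported here.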

Additional observations from a re-analysis of the deposited data

Results flagged for a closer look

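For 3 genes the difference between 10 and 3 days passed the limit in opposite directions in untreated and Ti-treated shoots, and the difference between the treatments was not tested. LSU2, a gene induced by low sulfur, differed by 1.06 in untreated shoots (17.1 CPM at 10 days and 8.19 CPM at 3 days) and by -1.68 in Ti-treated shoots (2.396 CPM at 10 days and 7.65 CPM at 3 days). SDI2, also of the sulfur deficiency response, differed by 1.15 in untreated shoots (50.5 CPM at 10 days and 22.8 CPM at 3 days) and by -1.11 in Ti-treated shoots (7.83 CPM at 10 days and 16.9 CPM at 3 days). ELIP2, an early light-induced protein of the chloroplast, differed by 1.28 in untreated shoots (41.5 CPM at 10 days and 17.0 CPM at 3 days) and by -1.16 in Ti-treated shoots (7.42 CPM at 10 days and 16.5 CPM at 3 days).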

How the results depend on the processing

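The counts moved with the limits that define them. A limit of 1 CPM on the higher group gave 765 genes higher and 1322 lower, 20 CPM gave 255 and 409, and no limit gave 924 and 1539. A call size of 0.5 gave 2117 genes higher and 2378 lower, and a call size of 2 gave 84 and 159. Within 1.5 times the main counts were those with a pseudocount of 1 CPM (403 and 746) or 0.1 CPM (475 and 847), centred on the median (471 and 902), rescaled to the same sum (653 and 719), after quantile normalization (528 and 817) and without the clock and heat shock lists (467 and 862). Of the list medians, that of salicylic acid defence changed sign, between -0.04 and 0.09. For named genes, moved means a shift of more than 0.121 on the log2 scale, which can be small beside the difference itself. Of 37 named genes, 26 moved with a pseudocount of 1 CPM, 20 with 0.1 CPM and 14 under quantile normalization. With a pseudocount of 1 CPM, HSP90.1 moved from 4.55 to 4.425 and HSP17.6A from 7.27 to 5.09. No paired analysis was possible because the 3 columns of a group hold 1 value, and for the same reason no replicate could be left out. Depth is unknown from the files, so the precision of low values such as those under 1 CPM cannot be stated.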
